A study of Mus musculus with 18 samples.

Results

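This section describes the genes that changed in mouse dorsal root ganglia when the sciatic nerve was cut in the presence of the antioxidant N-acetyl-cysteine, relative to a sham operation with saline. Dorsal root ganglia hold the cell bodies of sensory neurons, and those sampled send their axons into the sciatic nerve. The group SNA_NAC (sciatic nerve axotomy with 30 mM N-acetyl-cysteine) was compared with the group Sham_Saline (sham procedure with saline), 3 samples each, so that 6 of the 18 samples in the series carry the main comparison. All animals were C57BL/6 mice of 6 to 8 weeks, ganglia were taken 24 hours after surgery, and each sample pooled the ganglia of 2 mice. The comparison changes the injury and the agent together. SNA_Saline (axotomy with saline, 3 samples) therefore served to compare the 2 agents after the same injury. DCA (injury of the spinal dorsal columns, which hold the central axon branches of these neurons) and LAM (laminectomy, the bone removal that exposes the cord), 3 samples each, served as a central injury with its own control. Poly(A) RNA was sequenced with a strand-marking kit, and the deposited table holds whole-number counts for 15730 genes, all of which were tested.

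When a peripheral axon is cut, the cell body of the sensory neuron switches on a programme of transcription factors, neuropeptides, cytokines and cytoskeletal proteins that accompanies regrowth. Injury of the central branch of the same neuron is known to evoke a weaker response. N-acetyl-cysteine is a precursor of cysteine and thereby of glutathione, and it scavenges reactive oxygen species. Reactive oxygen species act as signals as well as toxic agents, and the labels name hydrogen peroxide as a further treatment in the series, which is not described here. AP-1 is the family of paired Jun, Fos and ATF proteins that bind TGACTCA and, for several ATF and CREB members, TGACGTCA.

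Total counts ran from 14285706 to 42435331 per sample, a 2.97-fold range. The Sham_Saline samples varied more among themselves than the SNA_NAC samples, with a median SD per gene of 0.295 against 0.141 in log2 CPM (counts scaled to the TMM-adjusted library size). Sham_Saline replicate 2 stood apart in its GC trend and muscle markers. Relative to each gene's mean over all 18 samples, its log2 CPM rose by 0.43 per standard deviation of transcript GC share. The other 5 samples had values from -0.17 to 0.16. Its summed CPM over 14 skeletal muscle markers was 1960, against 13.4 to 200 in the others. Sham_Saline replicate 1 differed from the rest of its group in another way. Its summed CPM over red blood cell markers was 273, against 816 and 880 in replicates 2 and 3. Over all genes it was the highest of the sham group in 39.6% and the lowest in 41.5%, against 37.0% and 35.9% for replicate 2. Summed neuron markers, all 8 of them detected, ran from 6870 to 10900 CPM in Sham_Saline, highest in replicate 2, and from 6370 to 7460 CPM in SNA_NAC. Their median log2 fold change was -0.45, and 0 were called. In these bulk samples fewer cells of a type and less RNA per cell cannot be told apart.

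The promoters of Areg, Il6 and Sprr1a are shown first. They were chosen from the 12 largest increases for holding an AP-1 or CREB-type motif. Whether AP-1 or CREB factors act on them was not tested. Each line gives the 250 bases before the transcription start in the RefSeq annotation of build GRCm38.p6, 5′ to 3′ on the strand of the gene, with the motif in capitals (TGACTCA is written TGAGTCA where it lies on the other strand). They lie at chr5:91139349-91139598 on the plus strand (Areg), chr5:30012864-30013113 on the plus strand (Il6) and chr3:92485882-92486131 on the minus strand (Sprr1a).
Areg: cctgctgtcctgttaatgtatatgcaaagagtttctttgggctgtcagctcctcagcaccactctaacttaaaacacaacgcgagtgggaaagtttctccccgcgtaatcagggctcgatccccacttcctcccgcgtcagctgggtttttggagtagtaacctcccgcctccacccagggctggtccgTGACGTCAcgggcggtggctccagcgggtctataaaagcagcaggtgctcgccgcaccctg
Il6: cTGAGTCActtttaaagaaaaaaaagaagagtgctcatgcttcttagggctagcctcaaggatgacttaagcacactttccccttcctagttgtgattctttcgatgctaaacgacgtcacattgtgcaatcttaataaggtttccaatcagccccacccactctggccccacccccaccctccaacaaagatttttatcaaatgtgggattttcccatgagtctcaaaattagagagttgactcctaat
Sprr1a: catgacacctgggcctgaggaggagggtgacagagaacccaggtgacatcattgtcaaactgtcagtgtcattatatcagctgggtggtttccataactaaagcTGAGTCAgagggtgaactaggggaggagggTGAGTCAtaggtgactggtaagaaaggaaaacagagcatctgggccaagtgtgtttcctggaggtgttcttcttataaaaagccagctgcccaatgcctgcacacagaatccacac
The motif began at position -61 from the start of Areg, at -249 in Il6 and at -146 and -116 in Sprr1a. Procr held TGACTCA at -154. Among the 12 largest increases, these 4 were the ones with a match in the reference table; 6 others had an entry without one. The window searched ran from 250 bases before to 50 after the start, both strands counted, and neither motif contains the other. TGACTCA stood in 4.82% of the promoters of genes called higher, 2.61% of those called lower and 3.83% of those of all genes in the count table. TGACGTCA stood in 3.40%, 1.74% and 2.86%. A match describes the letters and is no evidence of binding.

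After axotomy with N-acetyl-cysteine, the transcription factor Atf3, the cytokine Il6, the growth factor ligand Areg, the neuropeptide Npy and the receptor Cckbr were each more than 5-fold higher than after sham surgery. In SNA_NAC against Sham_Saline, 522 genes (3.32% of those tested) had an adjusted p under 0.05 in edgeR's quasi-likelihood test, with all groups in one fit and Benjamini-Hochberg adjustment. Of these, 389 were higher (2.47%) and 133 lower (0.846%) after axotomy. The log2 fold change was at least 1 in 118 of the higher genes, at least 2 in 23 of them, and at most -1 in 50 of the lower genes. The median log2 fold change was 0.76 among the higher genes, -0.83 among the lower genes and -0.01 over all genes. None of the 522 genes overlapped between the groups, which also means that each of the 3 pairs of samples sequenced on the same lane differed in the direction of the call; over all genes 11.5% were higher and 9.68% lower without overlap. The 12 largest increases and decreases below were also chosen for lacking overlap. Separation of the samples of a called gene, given below, therefore adds no support to its call. The counts depend on the Sham_Saline group: leaving out its replicate 1, 2 or 3 gave 5861, 215 and 311 genes, and leaving out SNA_NAC replicate 1, 2 or 3 gave 325, 217 and 221. With the lane as a block 328 genes were higher and 77 lower, and DESeq2 called 615 and 607. A fit on only SNA_NAC and Sham_Saline called 67 higher and 1 lower.

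Atf3 (ENSMUSG00000026628, chr1:191170296-191218039), a stress-induced transcription factor that marks axotomised sensory neurons, checks the labels of the injury. It measured 55.9, 72.6 and 59.4 CPM in the 3 Sham_Saline samples and 478, 452 and 412 CPM in the 3 SNA_NAC samples. Every SNA_NAC sample was far above every sham sample. The log2 fold change was 2.84 with a standard error of 0.19, or 7.14-fold (edgeR adjusted p = 1.45e-07). Gadd45a (ENSMUSG00000036390, chr6:67035096-67037457), which is induced by DNA damage and growth arrest, had the smallest p of all genes. Its values were 37.9, 48.9 and 50.4 CPM in Sham_Saline and 222, 250 and 225 CPM in SNA_NAC, a 5.08-fold rise (log2 fold change 2.35, SE 0.13, edgeR adjusted p = 6.24e-08). The groups lay well apart.

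Several of the largest increases were in secreted signals and their receptors. Cckbr (ENSMUSG00000030898, chr7:105425731-105470898), the receptor for cholecystokinin and gastrin, measured 0.429, 0.969 and 0.814 CPM in Sham_Saline and 5.88, 7.70 and 6.14 CPM in SNA_NAC. Its log2 fold change of 3.14 (SE 0.45, edgeR adjusted p = 0.000507) rests on 9 to 23 counts per sham library. Areg (ENSMUSG00000029378, chr5:91139599-91148432), or amphiregulin, a ligand of the epidermal growth factor receptor, rose from 0.763, 1.18 and 0.950 CPM to 8.41, 7.26 and 7.59 CPM. Il6 (ENSMUSG00000025746, chr5:30013114-30019981), a cytokine that signals through gp130 and STAT3, was nearly equal in the 3 sham samples, at 0.524, 0.547 and 0.543 CPM, and measured 3.70, 4.75 and 4.15 CPM in SNA_NAC. Areg was 7.97-fold and Il6 7.67-fold higher (edgeR adjusted p = 1.72e-05 and 6.00e-05), with 14 to 28 and 8 to 13 counts per sham library. Npy (ENSMUSG00000029819, chr6:49822710-49829507), the neuropeptide Y that uninjured sensory neurons hardly make, measured 0.286, 1.81 and 1.02 CPM in Sham_Saline and 6.83, 9.13 and 8.05 CPM in SNA_NAC. The sham samples differed several-fold among themselves for this gene. The lowest SNA_NAC value was above the highest sham value, as the choice of these genes required (log2 fold change 2.91, SE 0.44, edgeR adjusted p = 0.000927).

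Other large increases were in proteins of the cell surface, the extracellular space and the growing axon. Sprr1a (ENSMUSG00000050359), a small proline-rich protein known from regrowing axons, rose from 1.29, 4.17 and 2.31 CPM to 15.0, 21.6 and 15.7 CPM. Its family holds similar genes, and how shared reads were counted is not given in the sources used here. Flrt3 (ENSMUSG00000051379, chr2:140650914-140671469), a leucine-rich repeat protein of the cell surface that guides axons, rose from 31.4, 23.8 and 25.4 CPM to 134, 177 and 159 CPM. Gpr151, an orphan receptor coupled to G proteins, rose from 5.05, 6.15 and 5.22 CPM to 30.1, 36.5 and 31.3 CPM, a 5.93-fold change. For all 3 genes the groups lay apart, as their choice required. The edgeR adjusted p was 0.00442 for Sprr1a, 2.05e-06 for Flrt3 and 1.45e-07 for Gpr151. Procr (ENSMUSG00000027611, chr2:155751117-155755471), the receptor of protein C on endothelium, was 5.06-fold higher, with 4.0 to 7.92 CPM in Sham_Saline and 29.1 to 31.5 CPM in SNA_NAC. Tmem88b (ENSMUSG00000073680), a transmembrane protein, was 5.34-fold higher, with 3.96 to 4.48 CPM against 21.1 to 25 CPM. Leaving out any of the 6 samples left each of the 12 largest increases called, with an edgeR adjusted p of at most 0.0273.

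**Figure D1:**
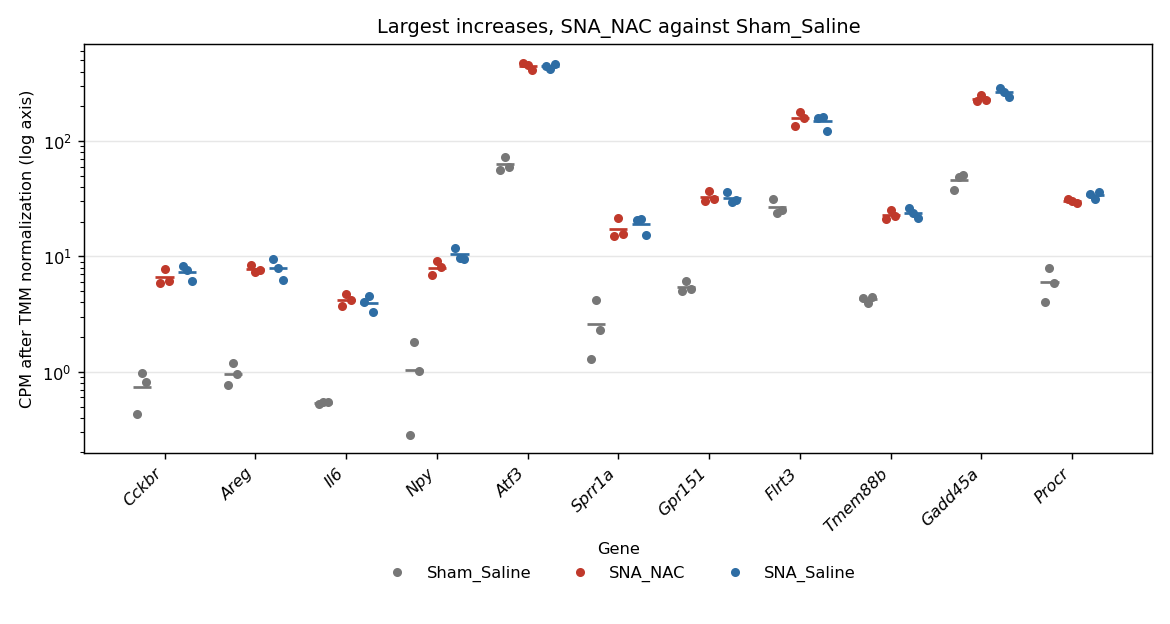
CPM after TMM normalization (log axis) of 11 of the 12 largest increases in each sample of Sham_Saline, SNA_NAC and SNA_Saline; points are samples and bars group means. For each gene the 3 SNA_NAC points lie above the 3 Sham_Saline points, as the choice of genes required. They lie among or near those of SNA_Saline. Atf3 measured 412 to 478 CPM in SNA_NAC against 55.9 to 72.6 CPM in Sham_Saline.

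The largest decreases were smaller and less certain, and many were in genes of low expression. Scx (ENSMUSG00000034161, chr15:76457452-76459458), the tendon transcription factor scleraxis, measured 2.33, 6.57 and 4.41 CPM in Sham_Saline and 1.47, 0.876 and 0.954 CPM in SNA_NAC (log2 fold change -1.96, SE 0.42, edgeR adjusted p = 0.0149). Wfdc2 (ENSMUSG00000017723, chr2:164562413-164568510), a secreted protein with whey acidic protein domains, fell from 2.43, 6.82 and 3.87 CPM to 1.75, 1.25 and 0.830 CPM (edgeR adjusted p = 0.0171). In both genes Sham_Saline replicate 2 was the highest sample, and without it they were no longer called (edgeR adjusted p = 0.109 and 0.145), nor were they without SNA_NAC replicate 2 or 3. Both were called when GC share and length entered the fit as offsets, at -1.29 and -1.14. The same sample was the highest of the sham group in 102 of the 133 lower genes (76.7%), against 37.0% of all genes. Among the 389 higher genes it was the lowest of the sham group in 54.0%, against 35.9% of all genes. Sham_Saline replicate 1 was the highest in 60.4% of these higher genes, against 39.6% of all genes. The median GC share was 56.0% among genes called lower, 47.1% among those called higher and 49.6% over all genes. With the same offsets, 89 of the 133 lower and 365 of the 389 higher genes were called again.

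Genes of granulocytes, the white blood cells rich in granules, were among the 12 largest decreases. Mpo (ENSMUSG00000009350, chr11:87793581-87804413), the myeloperoxidase of neutrophil granules, measured 4.43, 3.79 and 3.05 CPM in Sham_Saline and 1.80, 1.13 and 0.912 CPM in SNA_NAC (log2 fold change -1.51, SE 0.37, edgeR adjusted p = 0.0314). Camp (ENSMUSG00000038357, chr9:109847379-109849617), the antimicrobial cathelicidin of the same granules, fell from 12.8, 23.6 and 23.9 CPM to 7.35, 5.51 and 8.13 CPM (edgeR adjusted p = 0.0213). Prg2 (ENSMUSG00000027073, chr2:84980461-84983632), the major basic protein of eosinophils, fell from 13.7, 9.52 and 13.8 CPM to 4.88, 4.69 and 5.02 CPM (edgeR adjusted p = 0.0238). In each of the 3 the groups did not overlap, as the choice of the largest decreases required. The calls of Mpo, Camp and Prg2 were lost in 3, 5 and 4 of the 6 fits that left out 1 sample. The edgeR adjusted p there reached 0.156, 0.126 and 0.111. Of 10 neutrophil markers, 2 were called lower (Camp and Elane), and their summed level was 348 to 582 CPM in Sham_Saline, 230 to 309 CPM in SNA_NAC and 345 to 559 CPM in SNA_Saline; the part of these cells in other decreases was not tested. Summed red blood cell markers were 273 to 880 CPM in Sham_Saline and 229 to 322 CPM in SNA_NAC, with 0 of 6 called. Of 10 macrophage markers 1, the mannose receptor Mrc1, was called higher, and the sums overlapped (81.5 to 88.6 and 79.4 to 98.2 CPM). The 4 measured T and B cell markers of 8 summed to 7.06 to 8.55 CPM in Sham_Saline and 3.88 to 5.27 CPM in SNA_NAC, without overlap and with 0 called; their part in the decreases was not tested.

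The other 7 of the 12 largest decreases ran from Hp (-1.58) to Gm16108 (-1.23) in log2 fold change. Hp encodes haptoglobin, which binds haemoglobin, Igfbp2 (-1.42) a binding protein of insulin-like growth factors, Hmha1 (-1.38) a minor histocompatibility antigen, Pstpip1 (-1.32) an adaptor of the cytoskeleton in blood cells, Cidea (-1.35) a protein of lipid droplets, and Pi16 (-1.28) a peptidase inhibitor. With the lane as a block, 5 of them were not called (edgeR adjusted p = 0.0598 for Igfbp2, 0.0756 for Hmha1, 0.0568 for Cidea, 0.0722 for Pstpip1 and 0.0756 for Gm16108). With GC and length offsets Cidea was not called (edgeR adjusted p = 0.064), and Igfbp2, Hmha1 and Pstpip1 were at -0.69, -0.84 and -0.83. Each of the 12 decreases lost its call in 3 to 5 of the 6 fits that left out 1 sample. The largest edgeR adjusted p per gene was between 0.109 and 0.302.

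**Figure D2:**
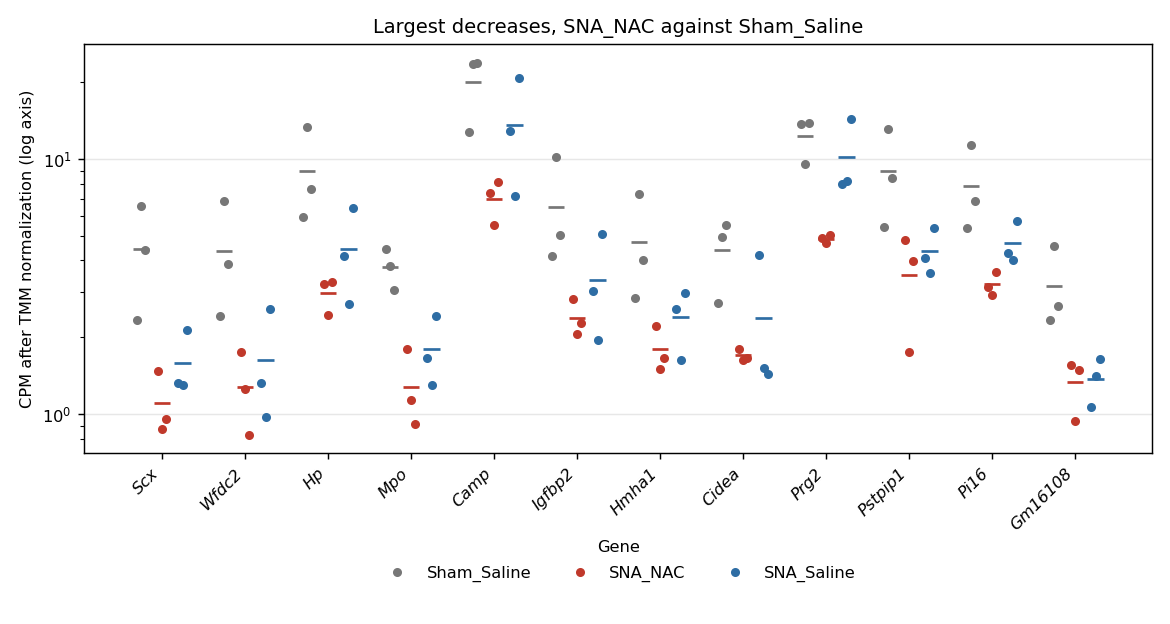
CPM after TMM normalization (log axis) of the 12 largest decreases in each sample of Sham_Saline, SNA_NAC and SNA_Saline; points are samples and bars group means. SNA_NAC lies below Sham_Saline in each gene, as the choice of genes required. The sham points are spread widely, as for Scx with 2.33 to 6.57 CPM.

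Many genes known to respond to nerve injury or to accompany axon growth were called higher. Of 37 measured members of this list, 25 were called higher and 0 lower (67.6%, against 3.32% of all genes), with a median log2 fold change of 1.19 against -0.01 over all genes. The list was drawn up from knowledge of nerve injury and with earlier results of these samples known, so its direction is not independent evidence. The lists also share members. Atf3, Jun, Gadd45a, Npy, Gal, Adcyap1, Il6, Csf1, Areg, Fst, Cckbr, Gpr151, Cacna2d1, Stmn4 and Tubb6 are counted again in lists below. The shares called in those lists are therefore not separate results. Sema6a (ENSMUSG00000019647), a transmembrane semaphorin that guides axons, rose from 24.4, 20.9 and 21.4 CPM to 90.2, 102 and 97.1 CPM, a 4.33-fold change (edgeR adjusted p = 1.40e-07). Klf6, a growth-associated zinc finger factor, Sox11, a factor of developing neurons, and Smad1, a mediator of BMP signals, had log2 fold changes of 1.19, 1.80 and 0.81. Among members that were not called, Gap43, the growth cone protein, had a log2 fold change of 0.23, Stat3 0.18 and Hspb1, a small heat shock protein, -0.13 (edgeR adjusted p = 0.208, 0.413 and 0.806). Nrn1, the growth-promoting neuritin, was lower without overlap of the samples but was not called (log2 fold change -0.32, edgeR adjusted p = 0.0861). Leaving out Sham_Saline replicate 2 gave 24 called members. Vip and Crh, also on the list, are not in the count table; in the deposited FPKM table Crh measured 0.109 to 0.158 in Sham_Saline and 0.523 to 0.774 in SNA_NAC.

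Among 27 AP-1, ATF and immediate early factors, 4 were called higher and 0 lower (14.8%, against 3.32% of all genes). Besides Atf3 these were Jun, Fosl2 and Crem. Jun (ENSMUSG00000052684, chr4:95049034-95052222), the core subunit of AP-1, measured 57.9, 78.5 and 63.3 CPM in Sham_Saline and 138, 148 and 137 CPM in SNA_NAC, a 2.11-fold rise (edgeR adjusted p = 5.57e-05). Fosl2, a Fos family partner, was 1.81-fold and Crem, a modulator of cAMP responses, 2.05-fold higher, without overlap of the samples (edgeR adjusted p = 0.00068 and 0.00279). The rapidly induced factors Fos, Egr1, Arc and Nr4a1 had log2 fold changes of 0.58, 0.38, 0.45 and -0.22 and were not called (edgeR adjusted p = 0.176, 0.28, 0.276 and 0.413).

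Of 46 genes of thiol, glutathione and Nrf2 defence, the system that N-acetyl-cysteine feeds, 2 were called higher and 0 lower (4.35%, close to the 3.32% of all genes). Srxn1 (ENSMUSG00000032802, chr2:152105516-152111376), sulfiredoxin, which reactivates oxidised peroxiredoxins, measured 506, 523 and 534 CPM in Sham_Saline and 1070, 958 and 966 CPM in SNA_NAC, a 1.91-fold rise (log2 fold change 0.94, SE 0.09, edgeR adjusted p = 1.01e-05). Txnrd1 (ENSMUSG00000020250, chr10:82833951-82897712), thioredoxin reductase, rose from 177, 160 and 139 CPM to 242, 246 and 237 CPM (edgeR adjusted p = 0.00196). For both the groups lay apart, and SNA_Saline measured 1060, 980 and 972 CPM for Srxn1 and 224, 219 and 218 CPM for Txnrd1. The sensor Keap1 (-0.50), its target Nfe2l2 (0.39), the glutamate-cysteine ligase subunit Gclm (0.30), the cystine transporter Slc7a11 (-0.15) and haem oxygenase Hmox1 (-0.28) were not called, with log2 fold changes as given. The median of the list was -0.15. Of 10 genes of the NADPH oxidase complex, the enzyme that makes superoxide, 0 were called in edgeR, 3 in DESeq2 and 0 in limma. Over all 15730 genes DESeq2 called 1222. An unadjusted edgeR p under 0.05 was found in 7 of the 10, a larger share than the 27.6% of all genes. The median of these 10 was -0.38. Rac1, a regulatory GTPase of the complex, measured 401, 387 and 444 CPM in Sham_Saline and 470, 494 and 473 CPM in SNA_NAC (edgeR adjusted p = 0.128), and Nox1, a catalytic subunit, 10.9 to 13.7 and 11.8 to 15.3 CPM (edgeR adjusted p = 0.556). These are the members of high count, and 7 of the 10 had a negative log2 fold change. Among them Rac2, the form of Rac in blood cells, was at -1.07, and the cytosolic subunits Ncf4 and Ncf1 at -1.09 and -0.50, each without overlap of the samples (edgeR adjusted p = 0.0613, 0.0615 and 0.125). Leaving out Sham_Saline replicate 1 gave 5 higher and 15 lower genes in the thiol list and 1 higher and 5 lower in the oxidase list, beside 5861 calls over all genes.

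Among 12 neuropeptides, 3 were called higher and 0 lower (25%, against 3.32% of all genes). All 3, Npy, Gal and Adcyap1, are also on the list of injury and growth genes. Adcyap1 (ENSMUSG00000024256, chr17:93199017-93206537), the peptide PACAP, rose from 116, 102 and 130 CPM to 330, 385 and 358 CPM, a 3.08-fold change (edgeR adjusted p = 1.01e-05). Gal, galanin, was 2.01-fold higher, with 11, 20.8 and 20.9 CPM in Sham_Saline and 39.5, 34.0 and 32.1 CPM in SNA_NAC (edgeR adjusted p = 0.0281). Its adjusted p was 0.0540 with the lane as a block and 0.086 without SNA_NAC replicate 1, and the call was also lost without SNA_NAC replicate 2 or 3. The peptides of uninjured nociceptors were not called: Calca, the peptide CGRP, had a log2 fold change of -0.05 and Tac1, substance P, of -0.09 (edgeR adjusted p = 0.818 and 0.741).

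Of 18 receptors for neuropeptides and inhibitory ligands, 3 were called higher and 1 lower (22.2%, against 3.32% of all genes). Beside Cckbr and Gpr151, Npy1r (ENSMUSG00000036437, chr8:66697192-66706792), the Y1 receptor of neuropeptide Y, rose from 39.1, 26.3 and 36.7 CPM to 73.3, 86.5 and 80.4 CPM. This was a 2.35-fold change (edgeR adjusted p = 0.00011). Oprl1 (ENSMUSG00000027584, chr2:181715016-181720985), the receptor of the opioid-like peptide nociceptin, fell from 24.4, 25.6 and 22.7 CPM to 15.1, 14.3 and 12.8 CPM (log2 fold change -0.78, SE 0.12, edgeR adjusted p = 0.0011). It kept its call without each of the 6 samples. The opioid receptors Oprm1 and Oprd1 had log2 fold changes of -0.20 and -0.74 and were not called (edgeR adjusted p = 0.814 and 0.234).

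Of 23 cytokines and growth factors, 5 were called higher and 1 lower (26.1%, against 3.32% of all genes). Csf1 (ENSMUSG00000014599, chr3:107741048-107760469), the growth factor of macrophages and microglia, rose from 20.6, 26.9 and 22.3 CPM to 62.3, 54.7 and 61.0 CPM (2.55-fold, edgeR adjusted p = 1.01e-05). Fst (ENSMUSG00000021765, chr13:114452290-114458951), follistatin, which binds activins, rose from 8.96, 7.96 and 8.69 CPM to 21.9, 30.9 and 25.7 CPM (3.06-fold, edgeR adjusted p = 1.61e-05). Areg and Il6, given above, and Bdnf, the brain-derived neurotrophic factor, were the other members called higher. Bdnf rose from 64.5, 59.5 and 59.6 CPM to 116, 129 and 127 CPM, with an edgeR adjusted p of 0.000356. The member called lower was Ntf3, neurotrophin-3, at 1.10, 1.85 and 1.29 CPM in Sham_Saline and 0.593, 0.375 and 0.373 CPM in SNA_NAC (edgeR adjusted p = 0.00784), which was not called without Sham_Saline replicate 2 (edgeR adjusted p = 0.0672). Ccl2, a chemokine, was not called, with a log2 fold change of 0.70.

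Among 24 genes of cell death and p53 response, 4 were called higher and 0 lower (16.7%, against 3.32% of all genes). Besides Gadd45a, Pmaip1, the pro-apoptotic protein Noxa, rose from 4.24, 3.20 and 3.33 CPM to 12.2, 16.1 and 14.4 CPM, a 3.94-fold change (edgeR adjusted p = 4.04e-05). Cdkn1a, the cell cycle inhibitor p21, rose from 88.7, 114 and 125 CPM to 159, 160 and 151 CPM, a 1.44-fold change (edgeR adjusted p = 0.026). Its log2 fold change of 0.52 was 0.81 with the offsets. It lost its call without Sham_Saline replicate 2 or any 1 of the 3 SNA_NAC replicates, with an edgeR adjusted p of up to 0.111. The core p53 targets Mdm2 (0.26), Ccng1 (0.23), Phlda3 (-0.53) and Bax (-0.89), with log2 fold changes in brackets, were not called. Of 27 genes of the integrated stress and unfolded protein response 0 were called in edgeR, 4 in DESeq2 and 0 in limma. Over all 15730 genes DESeq2 called 1222. An unadjusted edgeR p under 0.05 was found in 9 of the 27, a share near the 27.6% of all genes. With GC and length offsets 6 were called higher, beside 812 of all 15648 genes in that fit. Hspa5, the chaperone BiP of the endoplasmic reticulum, measured 463, 337 and 402 CPM in Sham_Saline and 472, 614 and 517 CPM in SNA_NAC (edgeR adjusted p = 0.131), without overlap. Hsp90b1, a chaperone of the same compartment, overlapped between the groups at 371 to 524 and 442 to 576 CPM (edgeR adjusted p = 0.391). Its log2 fold change of 0.20 became -0.04 with the offsets.

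**Figure D3:**
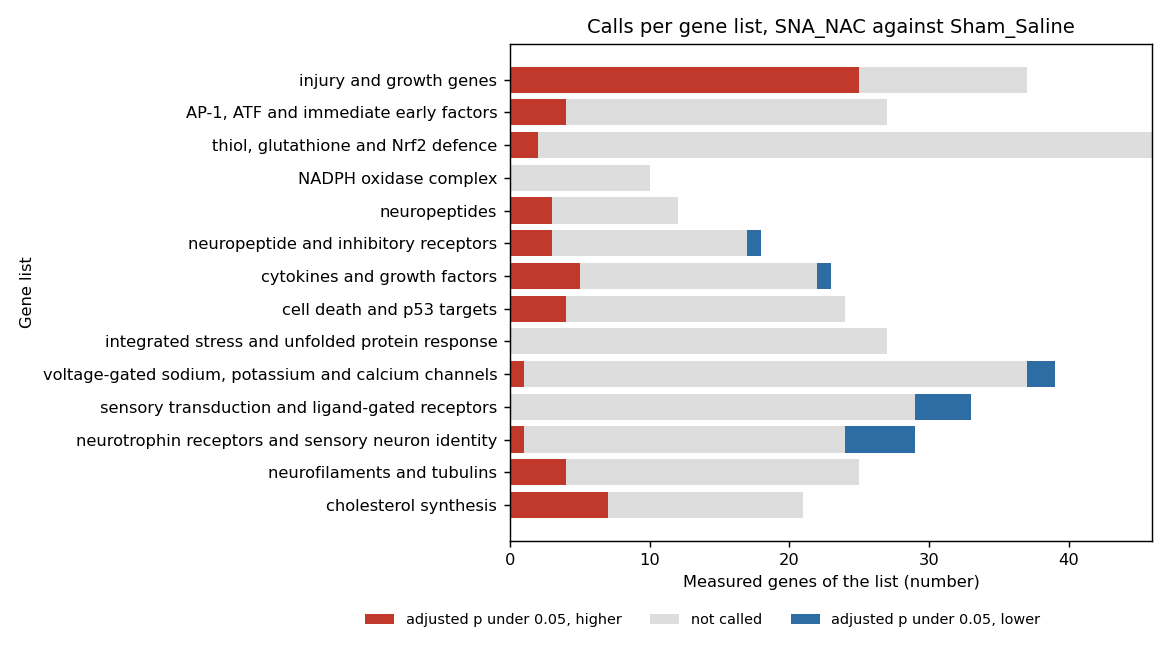
Number of measured genes of each of 14 gene lists that were called higher, not called or called lower in SNA_NAC against Sham_Saline (edgeR adjusted p under 0.05). The list of injury and growth genes stands out with 25 of 37 called higher, and some of these genes count in other lists as well. The calls to lower expression lie mainly in the lists of sensory transduction (4 of 33) and of sensory neuron identity (5 of 29). Over all genes 2.47% were called higher and 0.846% lower.

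Of the genes called lower in the gene lists, 11 lay in the lists of voltage-gated channels, sensory transduction and sensory neuron identity. Over all genes 0.846% were called lower. Of 39 voltage-gated channels 1 was called higher and 2 lower (7.69%, against 3.32% of all genes). Cacna2d1 (ENSMUSG00000040118, chr5:15934691-16374511), the calcium channel subunit that gabapentin binds, rose from 314, 177 and 215 CPM to 357, 469 and 462 CPM (1.83-fold, edgeR adjusted p = 0.0301). Kcnd1, a potassium channel of the A-type current, fell from 210, 258 and 212 CPM to 179, 157 and 165 CPM, and Cacna1h, a T-type calcium channel, from 20.7, 28.1 and 18.1 CPM to 14.2, 9.76 and 11.8 CPM (edgeR adjusted p = 0.0434 and 0.0493). In all 3 channels the groups did not overlap. Without Sham_Saline replicate 2 0 of the 3 were called (edgeR adjusted p = 0.169, 0.256 and 0.271), the calls were also lost without Sham_Saline replicate 3 or SNA_NAC replicate 2 or 3 (Kcnd1 and Cacna1h also without SNA_NAC replicate 1), and the lane block removed Kcnd1 and Cacna1h (edgeR adjusted p = 0.0704 and 0.0817). All 3 were called with GC and length offsets, at 0.51, -0.29 and -0.49. The sodium channels of nociceptors Scn10a and Scn11a had log2 fold changes of -0.17 and -0.05 and were not called.

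Of 33 genes of sensory transduction and ligand-gated reception 0 were called higher and 4 lower (12.1%, against 3.32% of all genes). Ptgir, the prostacyclin receptor, fell from 59.7, 71.3 and 62.1 CPM to 44.4, 41.0 and 47.7 CPM (log2 fold change -0.54, SE 0.12, edgeR adjusted p = 0.0171). Chrna6, a nicotinic receptor subunit, fell from 49.6, 37.2 and 48.2 CPM to 31.1, 34.2 and 31.1 CPM (-0.49, edgeR adjusted p = 0.0249). Htr3b, a subunit of the serotonin-gated channel, and Asic2, an acid-sensing channel, fell by 0.41 and 0.49 on the log2 scale (edgeR adjusted p = 0.0434 and 0.0496). The last 2 were not called with the lane block (edgeR adjusted p = 0.0704 and 0.0735), and without Sham_Saline replicate 2 only 1 of the 4, Chrna6, was called. Chrna6 itself lost its call without Sham_Saline replicate 3 or any 1 of the 3 SNA_NAC replicates (edgeR adjusted p up to 0.121), and Ptgir without Sham_Saline replicate 2 or SNA_NAC replicate 1 or 2 (up to 0.113). With GC and length offsets neither Asic2 (0.03, edgeR adjusted p = 0.923) nor Ptgir (-0.28, edgeR adjusted p = 0.051) was called. The heat and irritant channels Trpv1 and Trpa1 and the touch channel Piezo2 were not called, with log2 fold changes of 0.06, 0.56 and 0.22.

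Of 29 neurotrophin receptors and identity factors 1 was called higher and 5 lower (20.7%, against 3.32% of all genes). Gfra1 (ENSMUSG00000025089, chr19:58235604-58455909), the receptor of GDNF, rose from 201, 170 and 168 CPM to 371, 383 and 378 CPM (2.10-fold, edgeR adjusted p = 5.57e-05). Gfra2 (ENSMUSG00000022103, chr14:70890120-70979838), the related receptor of neurturin, fell from 122, 149 and 120 CPM to 88.1, 89.6 and 88.5 CPM (log2 fold change -0.56, SE 0.10, edgeR adjusted p = 0.00523). The 2 receptors of this family thus moved in opposite directions, each without overlap and each called without any 1 of the 6 samples. Pou4f3, a POU factor of sensory neurons, fell from 20.7, 25.5 and 24.2 CPM to 14, 14.6 and 13.8 CPM (edgeR adjusted p = 0.00373). Cux2, Isl2 and Hoxd1, homeodomain factors, had log2 fold changes of -0.83, -1.18 and -0.50 (edgeR adjusted p = 0.0232, 0.0249 and 0.0296). With the GC and length offsets Hoxd1 was not called (-0.22, edgeR adjusted p = 0.528), and the values of Isl2 and Gfra2 were -0.51 and -0.37, both called. Isl2 measured 30.3, 78.2 and 44.5 CPM in Sham_Saline and was at -0.72 without replicate 2 of that group. Without Sham_Saline replicate 2, 2 of the 5 were called, Gfra2 and Pou4f3, and Cux2 was also lost without SNA_NAC replicate 2 or 3 (edgeR adjusted p up to 0.125). Ret, which signals with the Gfra receptors, was not called (0.27).

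Of 25 neurofilament and tubulin genes 4 were called higher and 0 lower (16.0%, against 3.32% of all genes). Stmn4, a stathmin that binds tubulin, rose from 18.8, 31.2 and 29.4 CPM to 63.8, 59.2 and 58.4 CPM (2.28-fold, edgeR adjusted p = 0.000256). Gfap, the intermediate filament of reactive glia, rose from 1.38, 1.43 and 2.31 CPM to 5.14, 4.63 and 3.57 CPM (2.66-fold, edgeR adjusted p = 0.00911, and 0.0565 without Sham_Saline replicate 2). Tubb6 and Tuba1c, tubulin isotypes with near-identical relatives and therefore uncertain, were 1.88-fold and 1.74-fold higher, and both lost their call without SNA_NAC replicate 1 or 3, Tubb6 also without Sham_Saline replicate 3 (edgeR adjusted p up to 0.0693 and 0.0736). Their log2 fold changes of 0.91 and 0.80 were 1.38 and 1.23 with the offsets. The neurofilament genes Nefl, Nefm and Nefh had log2 fold changes of -0.07, -0.06 and -0.18 and were not called.

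Of 21 cholesterol synthesis genes, 7 were called higher and 0 lower (33.3%, against 3.32% of all genes). Stard4, a sterol carrier, Sqle, squalene epoxidase, Insig1, which restrains sterol synthesis, and Idi1, an isomerase of the pathway, had log2 fold changes of 0.63, 0.41, 0.48 and 0.60 (edgeR adjusted p = 0.0104, 0.0144, 0.0169 and 0.0408). Sqle measured 273, 255 and 278 CPM in Sham_Saline and 345, 372 and 353 CPM in SNA_NAC, and Insig1 133, 125 and 156 against 193, 191 and 195 CPM. The changes were small, and the group count was not stable: 3 were called with the lane block and 0 without Sham_Saline replicate 2, while the list median was 0.275 in both. Idi1 had an edgeR adjusted p of 0.064 with the block. Stard4 and Idi1 were at 0.39 and 0.36 with the offsets, both called.

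The question whether N-acetyl-cysteine altered the response was addressed by comparing SNA_NAC with SNA_Saline, 2 groups with the same injury. In edgeR 0 genes (0%) had an adjusted p under 0.05, and 314 (2%) had an unadjusted p under 0.05. DESeq2 and limma on FPKM values also called 0. Without overlap, 9.24% of all genes were higher and 5.63% lower in SNA_NAC. Since these groups and the main comparison share the SNA_NAC samples, and both injury comparisons share Sham_Saline, the values are set side by side only. Atf3 had a log2 fold change over Sham_Saline of 2.84 with N-acetyl-cysteine and 2.82 with saline, and the difference between the 2 axotomy groups was 0.01 (95% interval -0.35 to 0.38). For Gadd45a the changes were 2.35 and 2.53, with a difference of -0.19 (-0.45 to 0.08). For Srxn1 they were 0.94 and 0.94, with a difference of -0.01 (-0.19 to 0.18). An interval around 0 bounds the difference and does not show equality.

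Over the 37 injury and growth genes, the median difference between SNA_NAC and SNA_Saline was -0.07 (from -0.38 to 1.81, the latter in Arg1, arginase, with an interval of -0.01 to 3.63). The median half-width of the 95% interval was 0.40, and the interval held 0 for each gene. Intervals were wide for genes of low expression. They ran from -0.96 to 0.62 for Cckbr, from -1.18 to 0.41 for Npy and from -1.06 to 0.81 for Sprr1a. Over the 46 thiol and Nrf2 genes the interval also held 0 for each gene, with single differences from -0.49 to 0.29. Over all 14 lists the interval left out 0 for Oprm1 (1.25, from 0.06 to 2.45) and for the lysophosphatidic acid receptor Lpar3 (-0.25, from -0.46 to -0.04). Among the decreases, Prg2 measured 4.69 to 5.02 CPM in SNA_NAC and 7.98, 8.21 and 14.4 CPM in SNA_Saline, a difference of -1.07 (-1.73 to -0.41), and Camp 5.51 to 8.13 against 7.13 to 20.7 CPM, a difference of -0.96 (-1.69 to -0.23). Neither passed the adjustment (edgeR adjusted p = 1.00 for each). Prg2 and Camp were chosen as decreases in these same SNA_NAC samples, which favours negative differences here. Their intervals do not allow for that choice. The genes of smallest p were Gm5581, a predicted gene, and Mecom, a zinc finger factor. Mecom measured 3.51, 3.38 and 3.40 CPM in SNA_NAC, 1.91, 1.62 and 2.14 CPM in SNA_Saline and 2.29, 1.68 and 1.63 CPM in Sham_Saline, and Gm5581 0.747 to 0.996 against 0.198 to 0.432 CPM in the 2 axotomy groups. The log2 differences were 1.61 for Gm5581 and 0.85 for Mecom (edgeR adjusted p = 1.00 for each). Mecom was also called higher in SNA_NAC against Sham_Saline (edgeR adjusted p = 0.0241), a call lost without any 1 of 5 of the 6 samples, all but Sham_Saline replicate 1.

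**Figure D4:**
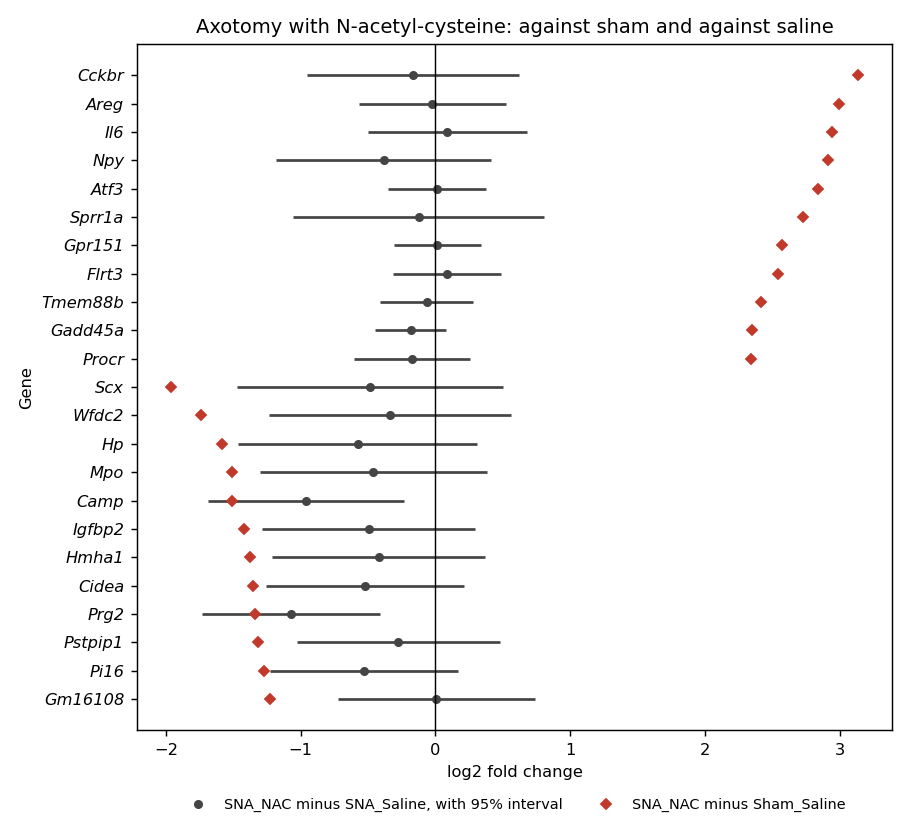
Log2 fold change of 11 of the 12 largest increases and the 12 largest decreases in SNA_NAC against Sham_Saline (diamonds), and the log2 difference of SNA_NAC minus SNA_Saline with its 95% interval (circles and bars). For the increases the difference between the axotomy groups lies near 0, as for Atf3 with 0.01. For the decreases it is mostly negative, and the interval leaves out 0 for Camp and Prg2. The genes were picked by their SNA_NAC values, which enter both comparisons. The signs and intervals are therefore not independent of that choice.

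The next comparison asked how the change after peripheral axotomy with N-acetyl-cysteine differed from the change after a central one, DCA against LAM, with no sample in common. The difference between the 2 changes had an edgeR adjusted p under 0.05 in 259 genes (1.65%), and 5333 genes (33.9%) had an unadjusted p under 0.05. The SNA_NAC change was the more positive in 194 of the 259 (1.23% of all genes) and the more negative in 65 (0.413%). A total of 221 were also called in SNA_NAC against Sham_Saline, 185 higher and 36 lower; both tests use the same SNA_NAC and Sham_Saline samples. With the lane as a block the count was 144. Leaving out single samples gave between 71 genes (without DCA replicate 3) and 6235 (without Sham_Saline replicate 1), with 1894 without DCA replicate 2, 88 without Sham_Saline replicate 2 and 73 without SNA_NAC replicate 2. The more positive genes then numbered 68 to 2925 and the more negative 3 to 3310. In DCA against LAM itself 0 genes were called in edgeR, and 793 had an unadjusted p under 0.05.

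With values as mean ± SD of 3 samples, Atf3 measured 13.8 ± 2.64 CPM after LAM and 30.9 ± 7.69 CPM after DCA. Its log2 fold change there was 1.14, and the change in SNA_NAC exceeded this by 1.7 (95% interval 1.16 to 2.23, edgeR adjusted p = 0.00234). For Gadd45a, with 31.7 ± 2.71 and 34.8 ± 2.2 CPM, the excess was 2.21 (edgeR adjusted p = 2.25e-05). Il6, Tmem88b and Areg also passed, with an excess of 3.35, 2.71 and 2.70 (edgeR adjusted p = 0.0146, 0.000175 and 0.0212). Jun, at 67.7 ± 7.01 and 66.8 ± 6.96 CPM, and Srxn1, at 448 ± 5.02 and 484 ± 13.8 CPM, also passed, with an excess of 1.10 and 0.83 (edgeR adjusted p = 0.00286 and 0.00234). Of the 37 injury and growth genes 15 passed, against 1.65% of all genes. Npy and Cckbr did not (edgeR adjusted p = 0.0625 and 0.154), with an excess of 2.82 and 1.98 and mean levels of 0.179 to 0.485 CPM in LAM and DCA. The sham group stood above LAM for several of these genes, as for Atf3 with 62.6 CPM against 13.8 CPM, so that the starting points of the 2 changes differed.

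Among called genes with a mean of at least 50 counts over the 18 samples, the most negative differences were in Rpl36 (-4.35), a protein of the large ribosomal subunit, Gm17178 (-3.08), a predicted gene, and Tpgs1 (-2.92), a subunit of a tubulin-modifying enzyme (edgeR adjusted p = 0.0369, 0.0326 and 0.0469). Rpl36 measured 5.53, 45 and 12.6 CPM in Sham_Saline and 5.07, 2.38 and 4.93 CPM in SNA_NAC. In DCA it measured 8.07, 4.53 and 27.1 CPM, so a single sample was high there as well. Sham_Saline replicate 2 was the highest sham sample in all 3 genes, and none of the 3 was called in SNA_NAC against Sham_Saline (edgeR adjusted p = 0.0712, 0.0584 and 0.0521), though all 3 were with GC and length offsets (0.0399, 0.0156 and 0.022). Rpl36 has near-identical copies in the genome, so its counts are uncertain. Among decreases called in the main comparison, Oprl1 differed by -0.79, Pou4f3 by -0.75 and Gfra2 by -0.61 (edgeR adjusted p = 0.0314, 0.0479 and 0.0447), and their log2 fold changes in DCA against LAM were 0.0015, 0.02 and 0.05.

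**Figure D5:**
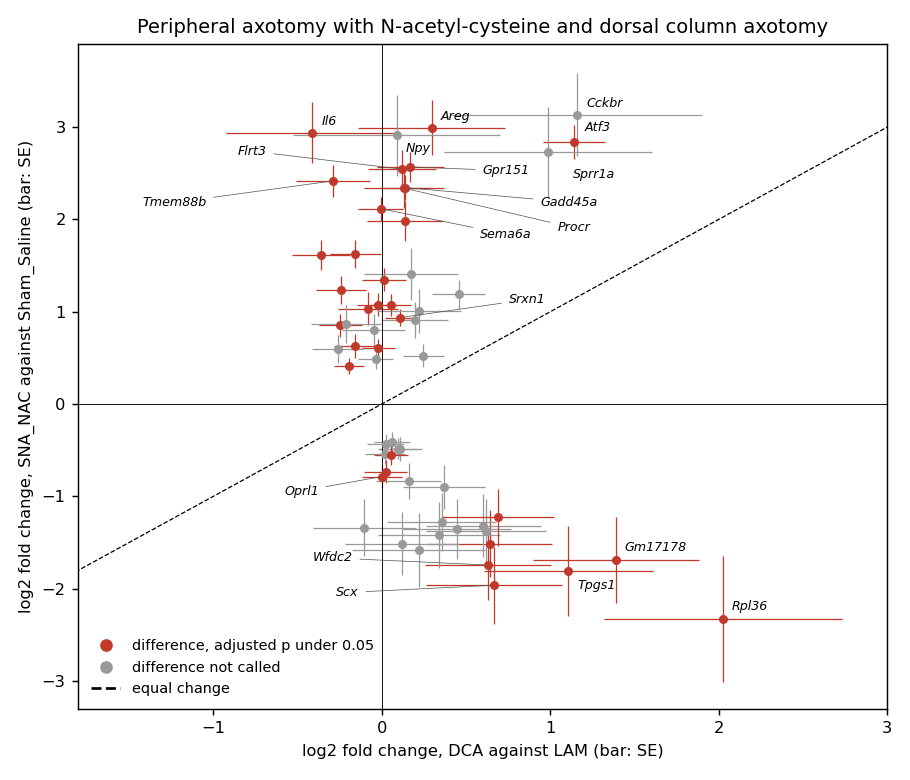
Log2 fold change of 59 named genes in SNA_NAC against Sham_Saline (vertical) and in DCA against LAM (horizontal), with standard errors; red points have an edgeR adjusted p under 0.05 for the difference, and the dashed line marks equal change. Of the 59 genes 34 lie above the line, among them Atf3 at 2.84 and 1.14, and the most negative difference is that of Rpl36. The genes were chosen for their calls or largest differences, so the number on each side of the line reflects that choice.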

How the data were processed

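RNA from 18 samples of sciatic dorsal root ganglia was sequenced in 6 groups of 3. Per the labels' protocols, RNA went through a strand-marking mRNA kit and single-end sequencing, 6 libraries on each of 3 lanes. The submitters' processing notes name TopHat2 2.0.12, Bowtie2 2.2.3, SAMtools 0.1.19, HTSeq 0.6.0, edgeR 3.8.6, limma 3.22.7, R 3.1.1, FastQC 0.10.1 and build mm10, with no order; whether counting used strand is not given in the sources used here, so overlapping antisense genes are uncertain. The deposited values are whole-number counts per gene, whose lowest mean over samples is 10.06, so low genes were absent. A second table deposited by the authors gives FPKM for 45904 features.

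The test was edgeR 4.0.16 under R 4.3.3 (TMM, filterByExpr, which kept all 15730 genes, glmQLFit, glmQLFTest), all 18 samples in one fit without a block; the standard error is the absolute log2 fold change over the square root of F. The common biological coefficient of variation was 17.4%. With 3 against 3, an exact permutation test of one gene cannot go below 0.1. Replicates were pools of different mice, so the spread behind the p-values is that between pools, which includes technical error. It was estimated over all groups and not from the compared groups alone. The median SD per gene in log2 CPM ran from 0.12 in LAM to 0.295 in Sham_Saline. Replicate numbers in the labels equal lanes; deviations of same-numbered SNA_NAC and Sham_Saline samples correlated across genes at -0.397, -0.535 and -0.155. Alternatives were DESeq2 1.42.0, RLE scaling, a minimum of 10 counts, fits without a filter, on the contrast groups alone or with the replicate block, offsets for GC share and length (GENCODE M21, 15648 genes, splines with 5 degrees of freedom), limma 3.58.1 on log2(FPKM + 1) and log2(FPKM + 0.1), an adjusted p under 0.10 and leaving out each sample. On simulated data for SNA_NAC against Sham_Saline with 15730 genes, 100%, 74% and 10% of 50 genes each with true log2 fold changes of 2, 1 and 0.58 were recovered, and 66% of 50 at -1, with 7 false calls among 132. These changes were placed only in genes with a mean of at least 50 counts. Apart from them, all simulated samples shared the same mean and spread per gene. The wider spread and GC trend of the sham samples were absent, so the rates need not hold for the real data.

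The members, 14 gene lists, 11 marker lists and tests were chosen with earlier results of these data known. Named genes were the 12 largest increases and decreases that were called, had a mean of at least 50 counts and did not overlap; up to 4 called members of each list, or 2 by count where fewer than 2 were called; the 3 largest differences of each sign from DCA; and the 2 of smallest p against SNA_Saline. Some genes that met these rules are not reported here. Further list members are given as values. Gene coordinates are from GENCODE M21 and promoters from RefSeq, both of the build in the notes. Intervals at 95% come from the fit. Of the marker lists not described, endothelium, fibroblast and perineurium, satellite glia, myelinating Schwann cell, dividing cell, skeletal muscle and neuron had 0 members called.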

Additional observations from a re-analysis of the deposited data

Results flagged for a closer look

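A test of the difference itself marked 259 genes whose SNA_NAC against Sham_Saline change was not that of DCA against LAM (edgeR adjusted p under 0.05). The controls of the 2 injuries differ as well, and which of the 4 groups the difference comes from was not tested.

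Features with FPKM values but no counts were not used in the comparisons. At a mean FPKM of 1 or more there were 193 such features, of which 3 differed between SNA_NAC and Sham_Saline in limma on log2(FPKM + 0.1), and at 0.1 or more 2537, of which 4 differed; second identifiers of Flrt3 and Cux2 among them repeat the reads of the counted genes. Gm13644 (ENSMUSG00000085119), a predicted gene, measured 1.43, 1.11 and 1.19 FPKM in Sham_Saline and 4.51, 5.33 and 5.39 FPKM in SNA_NAC, a difference of 1.95 on this scale (limma adjusted p = 0.00124). Lce1g (ENSMUSG00000027919), a late cornified envelope gene, was listed at 0.0517, 0.0452 and 0 FPKM in Sham_Saline and at 0.881, 1.69 and 1.14 FPKM in SNA_NAC, a difference of 3.32 (limma adjusted p = 0.000539). Tmco5b (ENSMUSG00000041255), which encodes a transmembrane coiled-coil protein, measured 0.193, 0.101 and 0.112 FPKM in Sham_Saline and 0.734, 0.632 and 0.755 FPKM in SNA_NAC, a difference of 1.79 (limma adjusted p = 0.0277). All 3 were also high in SNA_Saline, from 4.86 to 5.64, 0.902 to 1.16 and 0.571 to 1.26 FPKM. Groups of 3 samples are too small for a test of single outlying samples.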

How the results depend on the processing

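The direction of all 522 calls was the same under DESeq2, RLE scaling, no filter, the replicate block and only the contrast groups. It was also the same in both limma fits and with each sample left out. None of these genes overlapped between the groups, so such fits could hardly reverse a direction. The fit without a filter tested the same genes as the main one. This agreement is therefore no independent support. With GC and length offsets, 385 of the 385 higher and 130 of the 132 lower genes that had a GC value kept their direction. The other 2 reversed, Asic2 among them. The numbers called (total, higher, lower) changed to 1288, 726 and 562 at an adjusted p under 0.10, 1222, 615 and 607 with DESeq2 (50.3% higher, against 74.5%), 68, 67 and 1 with only the groups of the contrast (98.5% higher), 1220, 812 and 408 with GC and length offsets, and 1128, 775 and 353 with both offsets and the replicate block. Fewer genes were lower with the replicate block (77) and with limma on log2(FPKM + 0.1) (86). Leaving out single samples gave 215 to 5861 in total, 193 to 2887 higher and 20 to 2974 lower; without Sham_Saline replicate 1 the higher share was 49.3%. The cause was not tested. SNA_NAC against SNA_Saline gave 0 in every fit. The difference from DCA gave 3569 genes at an adjusted p under 0.10, 2318 with DESeq2, 144 with the replicate block, 847 with offsets, 663 with offsets and the replicate block, 161 with limma on log2(FPKM + 0.1), and 71 to 6235 with single samples left out. The replicate block changed the call of 11 named genes, each given beside its result, and of no other named gene. With offsets, without and with the replicate block, Asic2 was 0.0322 and 0.0371, and Hsp90b1 -0.0357 and -0.0341. The channel list's median ran from -0.276 (without Sham_Saline replicate 3) to 0.0901 (without Sham_Saline replicate 1). Of 37 named increases 20 were called in every fit, and of 22 named decreases 0. Of the alternative values of named genes, 909 kept direction and call, 195 lost and 15 gained the call. Depth limits genes of low counts, such as Il6.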

Other observations

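The genes below were chosen after their values were seen. In SNA_NAC against Sham_Saline, Id1, a helix-loop-helix inhibitor, fell from 7.63 ± 2.48 to 3.67 ± 0.530 CPM, Nog, the BMP antagonist noggin, from 5.91 ± 0.834 to 2.60 ± 0.179 CPM, and Bambi, a decoy receptor, from 15.5 ± 3.45 to 8.21 ± 0.394 CPM (mean ± SD of 3 samples, here and below), with edgeR adjusted p-values of 0.0145, 0.0112 and 0.00777. Smad7, the inhibitory Smad, had a log2 fold change of -0.94 (edgeR adjusted p = 0.0143). Without Sham_Saline replicate 2, Nog and Bambi were called (edgeR adjusted p = 0.022 and 0.0316), and Id1 and Smad7 were not (0.104 and 0.0862). With GC and length offsets Id1 and Bambi were called (edgeR adjusted p = 0.0213 and 0.00258), and Nog and Smad7 were not (0.167 and 0.113). In the same samples Smad1, which carries the BMP signal, was higher, at 39.7 ± 1.92 and 69.5 ± 5.35 CPM (edgeR adjusted p = 0.000124).

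Nicotinic receptor subunits moved in opposite directions. Chrna5 rose from 0.858, 0.421 and 0.272 CPM to 2.39, 2.19 and 2.16 CPM (edgeR adjusted p = 0.00435), and Chrnb3 fell from 9.91, 7.08 and 8.48 CPM to 3.91, 4.44 and 4.31 CPM (edgeR adjusted p = 0.000572). Both were also called without Sham_Saline replicate 2 and with GC and length offsets. Odc1, ornithine decarboxylase of polyamine synthesis, rose from 99.3 ± 5.19 to 164 ± 7.08 CPM and Azin1, which relieves its inhibition, from 306 ± 68.2 to 623 ± 64.2 CPM (edgeR adjusted p = 0.000188 and 0.00386). Star, which carries cholesterol into mitochondria for steroid synthesis, rose from 7.34, 6.53 and 5.29 CPM to 16.7, 17.8 and 16.6 CPM (edgeR adjusted p = 5.13e-05), and Hsd17b7, an enzyme of sterol and steroid synthesis, from 68.5 ± 13.9 to 129 ± 4.15 CPM (edgeR adjusted p = 0.000288). Msh6, a mismatch repair protein, rose from 24.4 ± 3.00 to 66.3 ± 2.79 CPM (edgeR adjusted p = 1.61e-05), and Itpr1, a calcium release channel, from 19.5 ± 4.05 to 60 ± 3.46 CPM (edgeR adjusted p = 5.27e-06). In SNA_Saline these means were 16.1 CPM for Star, 69.9 CPM for Msh6 and 56.6 CPM for Itpr1.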
